A study of Mus musculus with 6 samples.

Results

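The transcripts described here encode chemokines and inflammatory cytokines in cultured mouse lung microvascular endothelial cells (LMVEC). They are the protein-coding genes of the deposited table whose names are those of CC or CXC chemokines or *Cx3cl1*, together with *Il6*, *Il11*, *Lif*, *Il1a*, *Il1b*, *Il33* and *Tslp*, and without *Ccl28*. The names alone chose 35 of the 21999 genes of the table, 28 chemokines and 7 cytokines. Of 6 untreated isolations, all from strain SV129/B6, the labels give 3 as *Ptprz1*+/+ and 3 as *Ptprz1*-/-. Values in sets of 3 follow the replicate numbers 1, 2 and 3, and no label says that equal numbers share a day or a batch. Each isolation pooled the lungs of 2 to 5 animals aged 3 to 8 weeks. The cells were grown to confluence and then taken with magnetic beads carrying an antibody to CD31, so each library is a culture from several animals and no animal was measured alone. The question the design poses for these genes is whether their transcripts differ with the genotype, that is, with loss of the receptor tyrosine phosphatase encoded by *Ptprz1*.

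Chemokines are small, mostly secreted proteins that direct the migration of leukocytes through G protein-coupled receptors, and their class name (CC, CXC, CX3C) gives the spacing of the first cysteines. Endothelial cells and the stromal cells around them make many of them, mostly after NF-κB is activated by IL-1, TNF or microbial products, whereas a few, CXCL12 above all, are made constantly. IL-6, IL-11 and LIF signal through the shared receptor chain gp130, and IL-33 and TSLP are alarm signals of barrier tissue.

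Library totals ran from 14496881 to 17709663 counted reads. *Ptprz1* itself had 197, 1837 and 508 reads under the label *Ptprz1*+/+ and 1138, 1320 and 895 under *Ptprz1*-/-. The targeted gene thus overlapped between the genotypes, so directions are given by label alone. The summed level of 12 blood endothelial markers came to 131, 95.8 and 695 CPM (read counts scaled by library size, with TMM factors) for *Ptprz1*+/+, versus 86.5, 132 and 270 for the label *Ptprz1*-/-. That of 10 fibroblast markers was between 20399 and 34286 CPM. The 2 isolations numbered 3 therefore stood apart as the richest in endothelial transcripts, and in all 6 libraries fibroblast transcripts were the more abundant. In such bulk RNA, fewer cells of a type and less RNA per cell cannot be told apart.

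The promoters of 26 of the 35 genes are in the RefSeq table of GRCm38.p6 and were read for 3 patterns on both strands. The letters in capitals mark the NF-κB consensus, the sequence TATAAA and the AP-1 site TGAGTCA, each also as its reverse complement. Of all 32851 promoter windows, 7.25% held the NF-κB consensus, 12.4% TATAAA and 4.46% TGAGTCA in the 250 bases before the start. Of the 31 windows of these genes, 8 (25.8%), 12 (38.7%) and 6 (19.4%) did. The NF-κB consensus lay before *Ccl9*, *Il6*, *Cxcl1*, *Lif*, *Ccl20*, *Cxcl3*, *Cxcl2* and *Cxcl10*, in *Cxcl1*, *Cxcl2* and *Cxcl3* as the same GGGAATTTCC, where matches on both strands overlap by all but 1 base. It lay 44 to 35 bases before the start in *Il6*, 35 to 26 in *Ccl9* and 178 to 169 in *Lif*, and in *Ccl9* 2 TATAAA matches on opposite strands overlap. A match describes the letters and is not a measured site. *Cxcl16*, *Cxcl5*, *Ccl2*, *Ccl4*, *Ccl5*, *Ccl7*, *Ccl11*, *Ccl24* and *Tslp* had no entry. The 250 bases before the start are shown for the 4 best expressed of these 8 genes, and for *Cxcl13*, a gene without that consensus in its window, whose levels were high only in the 2 isolations numbered 3.
Il6, chr5:30012864-30013113, plus strand: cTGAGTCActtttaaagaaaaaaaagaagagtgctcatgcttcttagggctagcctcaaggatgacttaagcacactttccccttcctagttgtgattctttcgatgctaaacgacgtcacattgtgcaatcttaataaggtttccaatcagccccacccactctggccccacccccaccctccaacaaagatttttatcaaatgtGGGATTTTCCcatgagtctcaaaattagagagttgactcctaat
Cxcl1, chr5:90890995-90891244, plus strand: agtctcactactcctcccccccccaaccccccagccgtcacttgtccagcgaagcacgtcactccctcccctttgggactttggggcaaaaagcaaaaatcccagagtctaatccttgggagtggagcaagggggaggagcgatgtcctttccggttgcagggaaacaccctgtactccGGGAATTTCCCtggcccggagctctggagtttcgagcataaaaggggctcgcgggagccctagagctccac
Ccl9, chr11:83578637-83578886, minus strand: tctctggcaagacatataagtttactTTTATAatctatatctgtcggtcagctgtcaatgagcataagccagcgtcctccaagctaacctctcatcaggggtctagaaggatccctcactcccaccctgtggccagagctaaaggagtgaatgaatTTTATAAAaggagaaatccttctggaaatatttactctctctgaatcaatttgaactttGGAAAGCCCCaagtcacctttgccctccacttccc
Lif, chr11:4257318-4257567, plus strand: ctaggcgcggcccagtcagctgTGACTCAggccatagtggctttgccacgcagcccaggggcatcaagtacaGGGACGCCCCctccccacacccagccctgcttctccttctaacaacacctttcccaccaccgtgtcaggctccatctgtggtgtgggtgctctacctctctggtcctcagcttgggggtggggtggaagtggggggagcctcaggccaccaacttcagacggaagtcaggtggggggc
Cxcl13, chr5:95956689-95956938, plus strand: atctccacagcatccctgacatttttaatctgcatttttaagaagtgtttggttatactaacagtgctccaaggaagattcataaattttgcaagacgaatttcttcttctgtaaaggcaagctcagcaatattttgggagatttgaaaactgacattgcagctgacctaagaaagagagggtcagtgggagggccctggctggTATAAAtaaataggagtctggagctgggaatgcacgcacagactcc

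Per length, the cultures were rich in monocyte-attracting CC chemokines and in CXCL12. The median deposited FPKM (reads per length of gene and per library total) over the 6 libraries was 121 for *Ccl7*, 117 for *Cxcl12* and 117 for *Ccl2*. Next came *Cxcl1* (33.0), *Cxcl5* (27.6), *Cxcl14* (26.2), *Il33* (24.8), *Ccl8* (24.4) and *Il6* (22.8), which makes 9 genes above 10 FPKM. The ranges over libraries of neighbours in this order overlapped, from 32.2 to 184 FPKM for *Ccl7*, from 55.7 to 215 for *Cxcl12* and from 36.1 to 216 for *Ccl2*. At the other end, 17 genes had a median under 1 FPKM, and 24 of the 35 were read in every library.

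**Figure D1:**
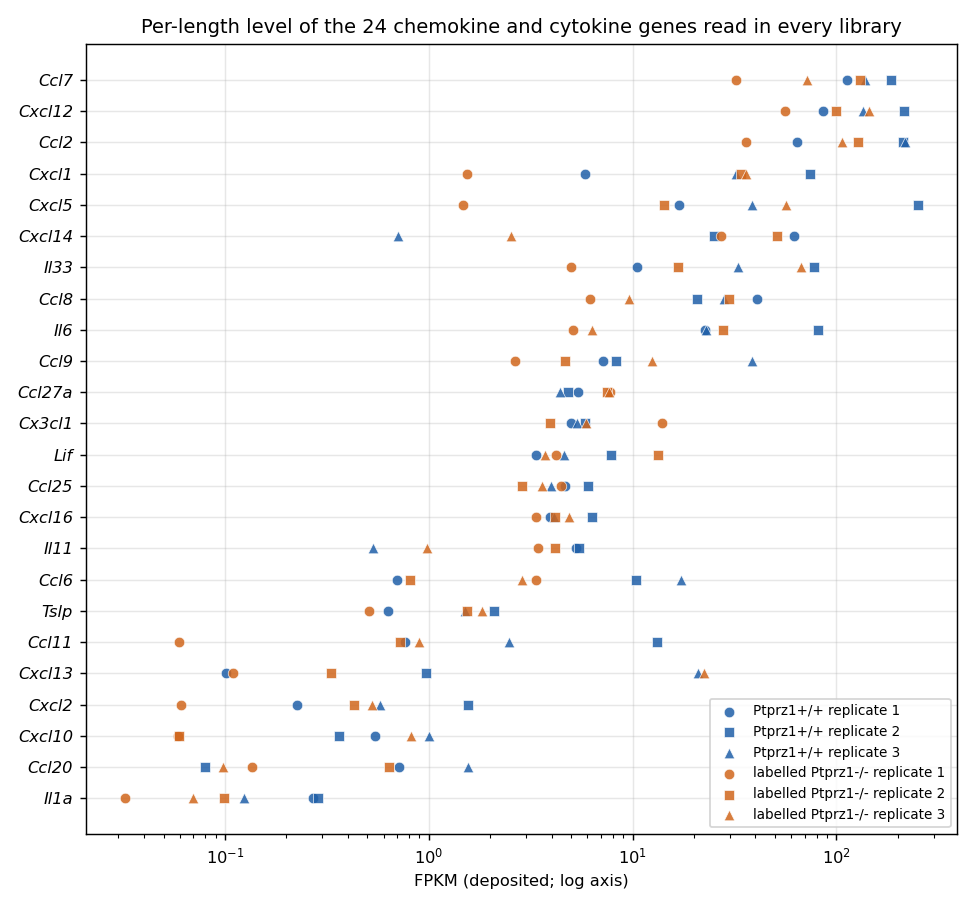
Deposited FPKM (x axis, log scale) of the 24 chemokine and cytokine genes read in all 6 libraries, ordered by median; each point is 1 library, with colour for genotype and shape for replicate. *Ccl7*, *Cxcl12* and *Ccl2* lead with medians of 121, 117 and 117, and *Cxcl13* and *Cxcl5* are among the 3 widest spreads, with *Ccl11*, from 0.101 to 22.4 and from 1.47 to 251.

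Of the 35 genes, 21 passed edgeR's filter on low counts and were tested with the 13609 genes that did. For 18 of the 21 the log2 fold change of the libraries labelled *Ptprz1*-/- against *Ptprz1*+/+ was below 0, and over all genes tested 50.9% were. The median log2 fold change was -0.55 over the 21 and -0.0047 over all genes tested. After Benjamini-Hochberg adjustment over all genes, 0 of the 21 reached 0.05 in the quasi-likelihood test of edgeR (background 0% of all genes), and their lowest adjusted p was 1.00. At an unadjusted p under 0.05 that test held 2 of the 21 (9.52%), *Ccl11* and *Ccl27a*, against 2.69% of all genes. DESeq2 called 0 of the 20 to which it gave a p-value at an adjusted p of 0.05 (background 0.221%) and held 4, *Ccl6*, *Ccl11*, *Il6* and *Ccl27a*, at an unadjusted one (background 3.64%). Limma voom called 0 of 21 (background 0%), with 1, *Ccl27a*, at an unadjusted p under 0.05 (background 2.51%). In 1 of the 21 genes (4.76%), *Ccl27a*, the genotypes did not overlap, which was so in 7.28% of all genes tested. The median moved when single libraries were left out and the filter was rerun, which also changed the genes tested. It was -0.27 over 23 genes without *Ptprz1*+/+ replicate 2 and -0.92 over 24 genes without the labelled *Ptprz1*-/- replicate 2.

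Markers of cell types leaned by label as well. All 12 blood endothelial markers had a log2 fold change below 0 (median -1.43), as had all 4 leukocyte markers tested (-1.06), 5 of 6 lymphatic markers (-1.28) and 8 of 10 fibroblast markers (-0.46). It was above 0 for all 7 mesothelial markers (2.44) and 6 of 8 markers of smooth muscle and pericytes (0.27). Of 8 epithelial markers only 1 was tested, and its log2 fold change was 0.42. The genotypes overlapped in each of the 12 endothelial markers. Their sum was highest in *Ptprz1*+/+ replicate 3 (695 CPM), and that of the labelled *Ptprz1*-/- replicate 2 (132) exceeded those of *Ptprz1*+/+ replicates 1 and 2 (131 and 95.8). However, *Eng* alone made up 115 CPM of that sum, and 101 and 59.4 CPM of those of *Ptprz1*+/+ replicates 1 and 2. By the median of the 12 markers the order was reversed, at 1.27 CPM against 2.17 and 2.03. The mesothelial sum was highest in the labelled *Ptprz1*-/- replicate 1 (1470 CPM, against 122 and 312 in its replicates 2 and 3). Not 1 of these markers was called by edgeR after adjustment, and under 0.05 before it were *Csf1r*, the fibroblast gene *Postn* (log2 fold change -0.95), the lymphatic gene *Reln* (-2.22) and the mesothelial gene *Lrrn4* (2.53). That was 1 each of the 4 leukocyte, 10 fibroblast, 6 lymphatic and 7 mesothelial markers tested, and 0 in the other lists. Of all genes tested, 2.69% were under that threshold. The part of these cell types in the lower levels of chemokines and cytokines was not tested.

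**Figure D2:**
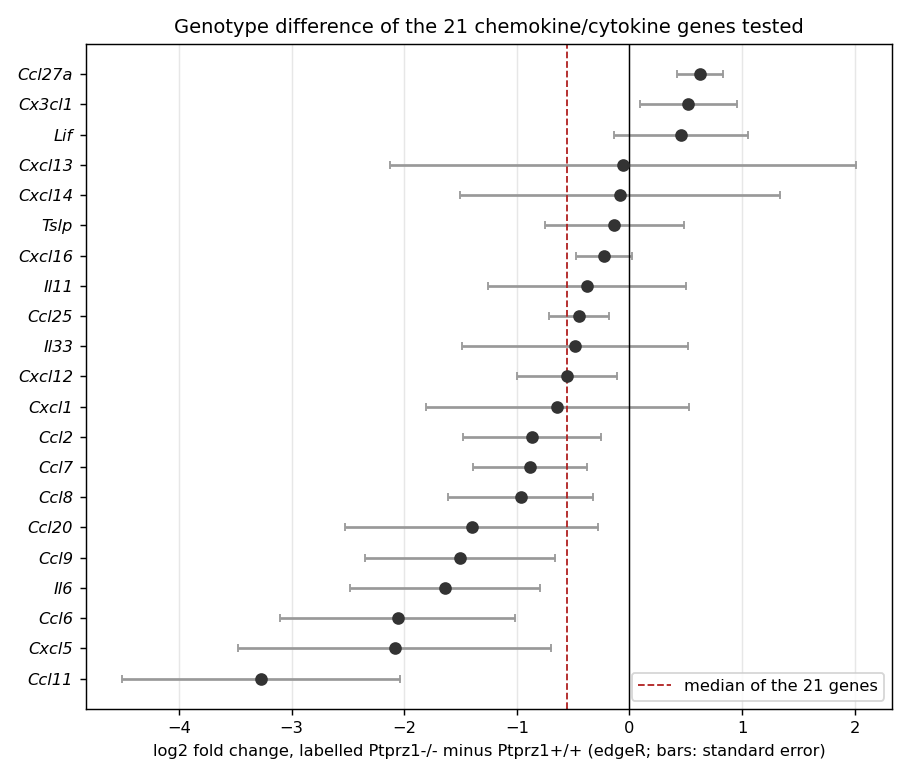
Log2 fold change of the 21 tested genes (x axis, libraries labelled *Ptprz1*-/- minus *Ptprz1*+/+, edgeR) with bars of 1 standard error; the dashed line is their median, -0.55. *Ccl11* lies lowest at -3.27 and *Ccl27a* highest at 0.62, and no gene passed an adjusted p of 0.05.

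The spread between libraries was wide for these genes. The ratio of the highest to the lowest library had a median of 9.84 over the 21, and 1.72 over all genes tested; it exceeded 10 in 10 of the 21 (47.6%), and in 5.83% of all genes. The highest value lay in *Ptprz1*+/+ replicate 2 for 10 of the 21 and in *Ptprz1*+/+ replicate 3 for 5. The lowest lay in the labelled *Ptprz1*-/- replicate 1 for 12 of the 21 (57.1%), where that library was the lowest of 16.3% of all genes tested. It also had the highest mesothelial sum (1470 CPM, against 57.1 to 312 in the other 5) and the lowest fibroblast sum (20399 CPM). Its endothelial sum was the lowest too (86.5 CPM), but *Eng* alone made up 59.6 CPM of that. By the median of the endothelial markers, the labelled *Ptprz1*-/- replicate 2 was lower (1.27 against 1.71 CPM). The part of these cell types in the low values was not tested. Conversely, 0 of the 21 were highest or lowest in the labelled *Ptprz1*-/- replicate 3. Of all genes tested, 11.7% were highest and 12.7% lowest there.

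**Figure D3:**
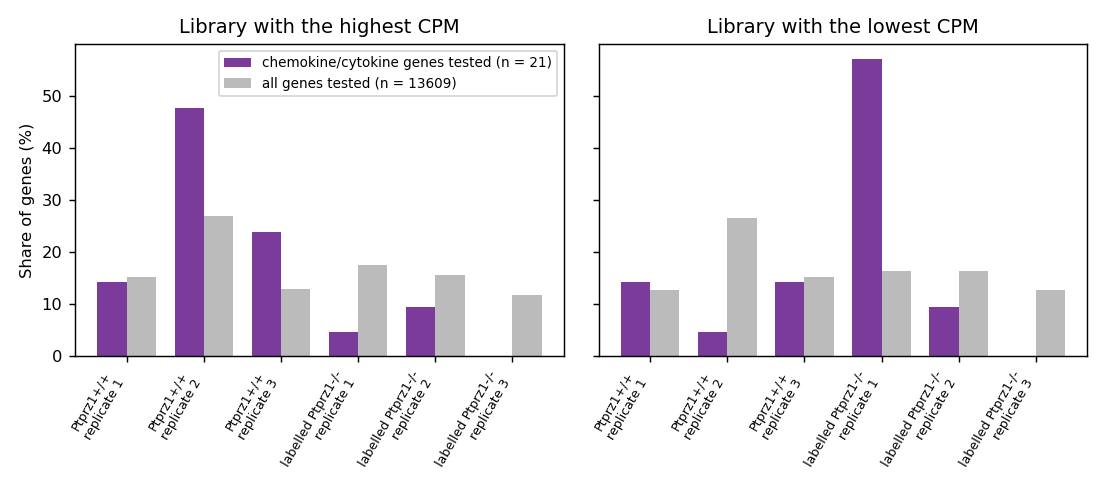
Share of genes (y axis, %) whose highest (left) or lowest (right) CPM lies in each library, for the 21 chemokine and cytokine genes tested and for the 13609 genes tested in all. *Ptprz1*+/+ replicate 2 is highest for 47.6% of the 21 against 26.9% of all genes, and the labelled *Ptprz1*-/- replicate 1 is lowest for 57.1% against 16.3%.

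Among the CXC chemokines that attract neutrophils through CXCR2, *Cxcl5* and *Cxcl1* were tested. *Cxcl5* (ENSMUSG00000029371, chromosome 5 of GRCm38 from 90759299 to 90761625) measured 28.4, 404 and 65.6 CPM in *Ptprz1*+/+ cultures, versus 2.36, 25.0 and 89.9 in cultures labelled *Ptprz1*-/-. *Cxcl1* (ENSMUSG00000029380, chromosome 5 from 90891241 to 90893115) was at 5.68, 69.1 and 31.7 CPM against 1.43, 34.2 and 32.8. Both genes were highest in *Ptprz1*+/+ replicate 2 and lowest in the labelled *Ptprz1*-/- replicate 1, and the groups overlapped. The log2 fold changes were -2.09 (standard error 1.39) for *Cxcl5* and -0.64 (standard error 1.17) for *Cxcl1*, within the spread between replicates. Without *Ptprz1*+/+ replicate 2, that of *Cxcl5* came to -0.27 and that of *Cxcl1* turned to 0.28. Without the labelled *Ptprz1*-/- replicate 3, that of *Cxcl5* was -3.60 and its groups no longer overlapped. In that setting 4 of 22 of the chemokine and cytokine genes and 17.4% of all genes tested did not overlap. *Cxcl2*, *Cxcl3* and *Cxcl15* were too low to be tested. *Cxcl3* had 4, 64 and 1 reads in the *Ptprz1*+/+ libraries and 4, 0 and 1 in those labelled *Ptprz1*-/-, and *Cxcl2* had 4, 29 and 10 against 1, 7 and 8, so both were again highest in *Ptprz1*+/+ replicate 2. Transcripts of *Cxcl2* and *Cxcl3* align to each other over 547 bases with 90.9% identity, which leaves the split of reads between them uncertain. The 38.7 CPM of *S100a8*, a neutrophil gene, also stood out in that library, against 0.462 to 6.86 in the other 5. The leukocyte list as a whole, of which 7 of 10 genes are in the table, summed to 14.4 to 68.4 CPM in the *Ptprz1*+/+ libraries and to 16.4 to 23.7 in the others, with none of the 7 at 0 throughout. *S100a8* belongs to that list and itself made up 38.7 of the 68.4 CPM in *Ptprz1*+/+ replicate 2, so the sum is no separate measure. The part of leukocytes in these levels was not tested.

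The monocyte attractants *Ccl2*, *Ccl7* and *Ccl8*, ligands of CCR2 and related receptors, lie together on chromosome 11 of GRCm38 between 82035571 and 82116799, as does *Ccl11*, which encodes eotaxin. *Ccl2* (ENSMUSG00000035385) measured 71.7, 226 and 245 CPM in *Ptprz1*+/+ cultures, versus 38.3, 148 and 111 in cultures labelled *Ptprz1*-/-. *Ccl7* (ENSMUSG00000035373) was at 92.0, 144 and 115 CPM against 24.9, 110 and 55.2, and *Ccl8* (ENSMUSG00000009185) at 21.3, 10.3 and 14.9 against 3.04, 16.1 and 4.69. All 3 were lowest in the labelled *Ptprz1*-/- replicate 1, and in each the groups overlapped. Their log2 fold changes were alike in size, -0.87 (standard error 0.61), -0.88 (standard error 0.51) and -0.97 (standard error 0.64). Without the labelled *Ptprz1*-/- replicate 2, *Ccl7* moved to -1.54 and *Ccl8* became lower by more than 1 log2 unit, and without its replicate 1 they came to -0.49 and -0.58. *Ccl2* moved to -0.48 without the labelled *Ptprz1*-/- replicate 1.

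*Ccl11* (ENSMUSG00000020676, chromosome 11 from 82057823 to 82062955), whose product recruits eosinophils through CCR3, had the lowest fold change of all 21. It was read 14, 253 and 44 times in the *Ptprz1*+/+ libraries and 1, 12 and 14 times in those labelled *Ptprz1*-/-, or at 0.846, 13.9 and 2.78 CPM against 0.0620, 0.824 and 0.925. *Ptprz1*+/+ replicate 2 held most of the reads, and *Ptprz1*+/+ replicate 1 overlapped with the other group. The log2 fold change was -3.27 (standard error 1.23; edgeR's unadjusted p = 0.0353 and adjusted p = 1.00; DESeq2's adjusted p = 0.565), and it came to -1.59 without *Ptprz1*+/+ replicate 2. Of the others that draw T cells, dendritic cells or eosinophils, *Ccl20* was tested, at 0.110 to 2.27 CPM and 0.132 to 0.961 CPM in the same order. *Ccl17*, *Ccl22* and *Ccl24* had 0 to 8 reads in any library.

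*Ccl9* and *Ccl6* encode chemokines of mouse myeloid cells that bind CCR1, and they stand side by side on chromosome 11 from 83572919 to 83593087. *Ccl9* (ENSMUSG00000019122) measured 21.8, 24.4 and 120 CPM in *Ptprz1*+/+ cultures, versus 7.69, 14.9 and 35.9 in cultures labelled *Ptprz1*-/-. *Ccl6* (ENSMUSG00000018927) was at 1.03, 14.5 and 25.7 CPM against 4.65, 1.24 and 3.96. Replicate 3 of *Ptprz1*+/+ was the highest for both neighbours, while *Ccl6* was lowest in replicate 1 of that genotype and *Ccl9* in the labelled *Ptprz1*-/- replicate 1. The log2 fold changes were -1.50 (standard error 0.85) for *Ccl9* and -2.06 (standard error 1.04) for *Ccl6*, and DESeq2's unadjusted p for *Ccl6* was 0.0300 (adjusted p = 1.00). Without *Ptprz1*+/+ replicate 3, *Ccl9* came to -0.24 and *Ccl6* to -1.24, and without the labelled *Ptprz1*-/- replicate 3 *Ccl9* came to -2.30. Lysozyme (*Lyz2*), also a myeloid gene, was at 8.22, 17.4 and 40.1 CPM against 15.8, 6.25 and 10.7, and the pan-leukocyte gene *Ptprc* was at 0.0686 to 0.558 CPM over all 6 libraries. Another marker of that list, *Csf1r*, was at 3.14, 3.52 and 5.24 CPM against 1.55, 1.92 and 1.98, with no overlap (edgeR's unadjusted p = 0.0107, adjusted p = 1.00). *Csf1r* was picked by its p-value for the same contrast, so the 7.28% of all genes without overlap is no measure for it. Whether the transcripts of *Lyz2*, *Ptprc* and *Csf1r* and those of *Ccl6* and *Ccl9* came from the same cells was not tested. *Ccl3*, *Ccl4* and *Ccl5*, inflammatory CC chemokines, were below the filter, with at most 23, 5 and 3 reads in any library.

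The remaining CXC and CX3C genes are ordered here by abundance. *Cxcl12* (ENSMUSG00000061353, chromosome 6 from 117168535 to 117181367), the constitutive stromal ligand of CXCR4 and ACKR3, measured 492, 1177 and 789 CPM in *Ptprz1*+/+ cultures, versus 304, 593 and 779 in cultures labelled *Ptprz1*-/-. The groups overlapped, and the log2 fold change of -0.55 (standard error 0.44) ranged from -0.87 to -0.20 when each library was left out in turn. *Cx3cl1* (ENSMUSG00000031778, chromosome 8 from 94772009 to 94782423), which encodes the membrane-bound fractalkine, was at 16.9, 18.7 and 18.3 CPM against 44.8, 13.8 and 18.8. It was the only gene of the 21 whose highest value lay in the labelled *Ptprz1*-/- replicate 1, and its log2 fold change of 0.52 (standard error 0.43) turned to -0.14 without that library. The 7 mesothelial markers, all tested and none at 0, also summed highest there, at 1470 CPM, against 122 and 312 in the other labelled *Ptprz1*-/- libraries and 57.1 to 229 in *Ptprz1*+/+. Their part in the level of *Cx3cl1* was not tested. *Cxcl16* (ENSMUSG00000018920, chromosome 11 from 70453983 to 70459984), a scavenger receptor and ligand of CXCR6, varied least among the CXC genes tested. It was at 10.8, 16.6 and 11.4 CPM against 8.81, 11.9 and 12.6, a log2 fold change of -0.23 (standard error 0.25). Its exons share 552 bases with *Zmynd15* on the other strand, so its counts are uncertain if the counting did not use strand.

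A few genes separated the isolations rather than the genotypes. *Cxcl13* (ENSMUSG00000023078, chromosome 5 from 95956928 to 95961067), a B-cell attractant that binds CXCR5, measured 0.121, 1.10 and 25.5 CPM in *Ptprz1*+/+ cultures, versus 0.124, 0.412 and 25.1 in cultures labelled *Ptprz1*-/-. Thus the 404 and 380 reads of the 2 isolations numbered 3 stood against 2 to 20 reads in each of the other 4. *Cxcl15*, a chemokine of lung epithelium, was below the filter and followed the same order, with 1, 0 and 20 reads against 0, 0 and 39. *Cxcl14* (ENSMUSG00000021508, chromosome 13 from 56288647 to 56296551), a constitutive chemokine of epithelium and stroma, ran the other way, at 115, 44.6 and 1.32 CPM against 48.1, 99.1 and 4.43. *Il11* (ENSMUSG00000004371, chromosome 7 from 4773055 to 4782857), a cytokine of stromal cells, was likewise lowest in the isolations numbered 3, at 6.83, 6.71 and 0.694 CPM against 4.22, 5.56 and 1.19.

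Between the genotypes, these genes differed little beside that spread. The log2 fold changes were -0.06 (standard error 2.07) for *Cxcl13*, -0.08 (standard error 1.42) for *Cxcl14* and -0.38 (standard error 0.88) for *Il11*. With 1 of the 2 isolations numbered 3 left out, *Cxcl13* swung from 3.77 to -5.05. The isolations numbered 3 were also those richest in endothelial transcripts. *Pecam1*, which encodes CD31, was at 91.0 and 32.4 CPM in them and at 1.36 to 4.40 in the other 4, and *Cdh5*, which encodes VE-cadherin, at 199 and 61.3 against 3.60 to 14.3. The endothelial levels were higher in the *Ptprz1*+/+ isolation and those of *Cxcl13* nearly the same in both. The 8 epithelial markers summed to 1.14 and 1.65 CPM in the isolations numbered 3 and to 0.961 to 3.78 in the other 4. Whether endothelial cells or another cell type carried these 4 transcripts was not tested.

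**Figure D4:**
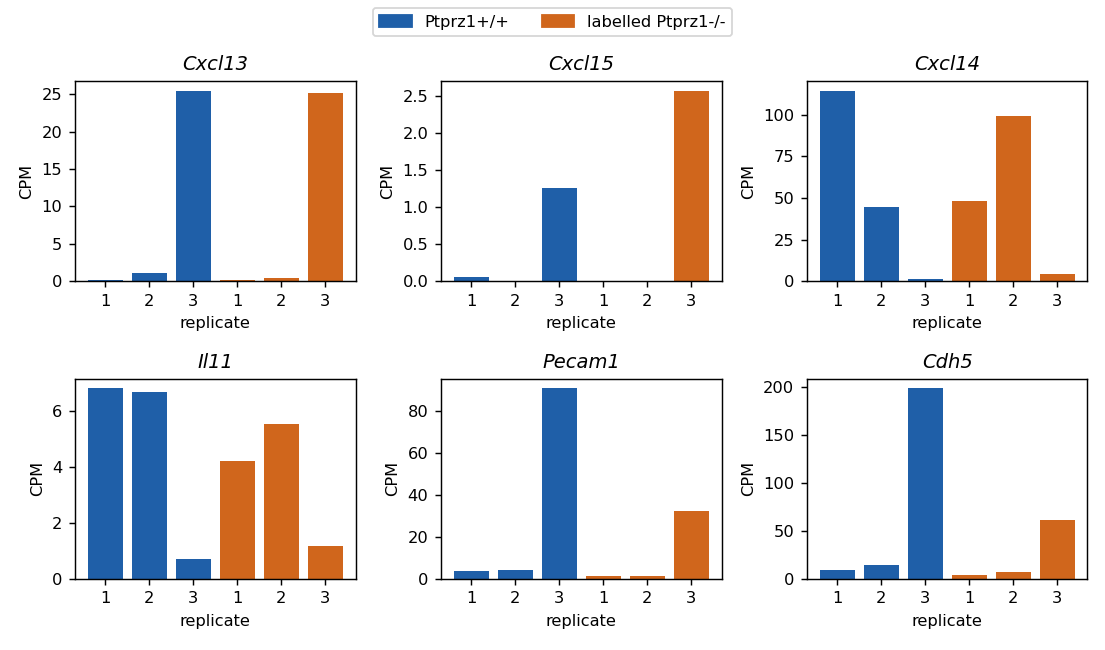
CPM (y axis, from 0) of *Cxcl13*, *Cxcl15*, *Cxcl14*, *Il11* and the endothelial genes *Pecam1* and *Cdh5* in each library (x axis, replicate number; colour, genotype). *Cxcl13* stands at 25.5 and 25.1 in the isolations numbered 3 and at 1.10 or below in the other 4, whereas *Cxcl14* and *Il11* are lowest in those numbered 3.

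Of the cytokines that signal through gp130, *Il6* (ENSMUSG00000025746, chromosome 5 from 30013161 to 30019968) measured 25.1, 85.7 and 25.7 CPM in *Ptprz1*+/+ cultures, versus 5.33, 32.0 and 6.61 in cultures labelled *Ptprz1*-/-. Replicate 2 was the highest of each genotype, and only the labelled *Ptprz1*-/- replicate 2 reached into the range of the *Ptprz1*+/+ libraries. The log2 fold change was -1.64 (standard error 0.84; edgeR's unadjusted p = 0.0960 and adjusted p = 1.00; DESeq2's unadjusted p = 0.0352 and adjusted p = 1.00). It ranged from -2.93 without the labelled *Ptprz1*-/- replicate 2 to -0.80 without *Ptprz1*+/+ replicate 2. *Lif* (ENSMUSG00000034394, chromosome 11 from 4257557 to 4272514) was at 13.8, 30.6 and 19.2 CPM against 16.4, 56.8 and 14.3, also highest in replicate 2 of each genotype. Its log2 fold change of 0.46 (standard error 0.59) turned to -0.47 without the labelled *Ptprz1*-/- replicate 2.

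Among the IL-1 family, *Il33* (ENSMUSG00000024810, chromosome 19 from 29925114 to 29960718), a nuclear alarmin of endothelial and stromal cells, measured 27.4, 193 and 86.6 CPM in *Ptprz1*+/+ cultures, versus 12.2, 45.0 and 162 in cultures labelled *Ptprz1*-/-. The groups overlapped over most of their range. The log2 fold change of -0.48 (standard error 1.01) turned to 0.36 without *Ptprz1*+/+ replicate 2. *Il1a* was below the filter, with 9, 10 and 4 reads against 1, 3 and 2, at counts too low for the edgeR test. Its groups did not overlap, which alone fixes the exact two-sided permutation p at 0.10, the smallest possible. Without a filter on low counts, 6.65% of all genes did not overlap. The exons of *Il1a* also share 222 bases with *Gm14023* on the other strand. *Il1b*, a form of IL-1 made chiefly by myeloid cells, had 1 read in all, in *Ptprz1*+/+ replicate 2, and a count of 0 allows up to 0.165 to 0.206 CPM in a library, for counting error alone. *Tslp* was at 0.725 to 2.31 and 0.558 to 1.98 CPM in the same order, a log2 fold change of -0.13 (standard error 0.62).

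*Ccl27a* (ENSMUSG00000073888, chromosome 4 from 41769467 to 41774247), an attractant of skin-homing T cells through CCR10, was the 1 tested gene whose groups did not overlap. It was read 91, 85 and 72 times in the *Ptprz1*+/+ libraries and 120, 115 and 111 times in those labelled *Ptprz1*-/-, or at 5.50, 4.67 and 4.54 CPM against 7.44, 7.89 and 7.33. All 3 labelled *Ptprz1*-/- libraries lay above all 3 *Ptprz1*+/+ libraries, with means of 7.56 ± 0.297 and 4.90 ± 0.518 CPM (SD, n = 3 each). The log2 fold change was 0.62 (standard error 0.20), or 1.54-fold, with an unadjusted p of 0.0207 and an adjusted p of 1.00 by edgeR, and an adjusted p of 0.758 by DESeq2. By an exact two-sided permutation test p was 0.10, the smallest that 3 libraries against 3 allow. Any gene whose groups do not overlap gives that value, so it adds nothing to the lack of overlap, which held for 7.28% of all genes tested. The log2 fold change stayed between 0.57 and 0.72 with each library left out in turn.

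Reads of *Ccl27a* are uncertain, because the gene has near-identical copies. Its transcripts align to *Ccl27b* over 425 bases with 99.3% identity, to *Gm13306* over 542 bases with 99.3% and to *Gm20878* over 766 bases with 98.6%. Of these, *Gm13306* is in the table, with 0 to 3 reads per library. *Ccl27b* and *Gm20878* are not in it under these names, so reads of these copies could not be examined. The sum of *Ccl27a* and *Gm13306* was 92, 85 and 73 reads against 120, 116 and 114. *Ccl25*, a thymic and gut chemokine, was at 4.54 to 6.54 CPM in the *Ptprz1*+/+ libraries and at 3.36 to 4.78 in the cultures labelled *Ptprz1*-/-, which gives a log2 fold change of -0.45 (standard error 0.27). Its exons share 204 bases with *Elavl1* on the other strand, so its counts are uncertain if the counting did not use strand. *Ccl19*, which guides cells to lymph nodes, had 2 reads in all 6 libraries, and its transcripts align to *Gm2564* over 707 bases with 98.9% identity. The interferon-induced *Cxcl10* had 10, 7 and 18 reads against 1, 1 and 13, and *Cxcl9* had 3 reads in all. Exons of *Cxcl10* share 133 bases with *Art3* on the other strand, so the same limit on strand holds for it.

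Of 23 chemokine receptor genes, 20 were in the table and 8 were tested. The numbers lower and higher in the labelled *Ptprz1*-/- libraries were 5 and 3, with 0 at an unadjusted p under 0.05 in edgeR and a median log2 fold change of -0.33. The CXCL12-binding receptor *Ackr3* was the most abundant by CPM, at 51.5, 54.4 and 56.3 against 36.0, 60.3 and 34.8 (log2 fold change -0.31, standard error 0.23). *Cxcr4*, the signalling receptor of CXCL12, was below the filter and again high in the isolations numbered 3 alone, at 0.362, 0.385 and 10.9 CPM against 0.558, 0.412 and 8.65. *Cxcr5*, the receptor of CXCL13, did not follow its ligand, at 1.63, 2.91 and 2.59 CPM against 1.43, 1.72 and 2.44. *Ccr1* was high in the replicate 2 of each genotype, at 0.483, 5.33 and 0.568 CPM against 0.806, 5.56 and 1.06.

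All 12 genes of cytokine receptors and antagonists were in the table and 10 were tested, 6 lower and 4 higher, with 0 at an unadjusted p under 0.05 in edgeR and a median log2 fold change of -0.10. *Il6st*, which encodes gp130, measured 1259, 824 and 1936 CPM in *Ptprz1*+/+ cultures, versus 799, 1222 and 2579 in cultures labelled *Ptprz1*-/-. *Osmr*, its partner for oncostatin M, was at 512, 349 and 508 CPM against 304, 514 and 492. The IL-1 receptor gene *Il1r1* was at 113, 266 and 139 CPM against 69.0, 121 and 156, and *Il11ra1*, which encodes the receptor of IL-11, at 68.9, 96.1 and 90.4 against 58.5, 75.6 and 98.6. In none of these 4 did the genotypes separate.

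Components and response genes of NF-κB were examined because the pathway switches on many of these ligands. All 31 were in the table and 28 were tested. Of these, 23 were lower and 5 higher in the labelled *Ptprz1*-/- libraries, with a median log2 fold change of -0.29 and none past an adjusted p of 0.05, where 50.9% of all genes were lower. At an unadjusted p under 0.05 edgeR held 2 lower and 1 higher of the 28, beside 2.69% of all genes. *Icam1*, the leukocyte adhesion molecule, measured 44.5, 16.2 and 57.9 CPM in *Ptprz1*+/+ cultures, versus 103, 102 and 83.8 in cultures labelled *Ptprz1*-/-, which gives a log2 fold change of 1.29 (standard error 0.43, unadjusted p = 0.0230, adjusted p = 1.00). *Selp*, which encodes P-selectin of endothelium and platelets, was at 6.95, 5.22 and 51.4 CPM against 1.61, 3.29 and 1.92 (log2 fold change -3.22, standard error 0.98, unadjusted p = 0.0151, adjusted p = 1.00). *Tnfaip3*, which encodes the inhibitor A20, was at 10.4, 12.9 and 10.2 CPM against 7.51, 8.24 and 7.86 (log2 fold change -0.50, standard error 0.19, unadjusted p = 0.0342, adjusted p = 1.00). The genotypes did not overlap in any of the 3, and *Icam1* stood opposite to the other 2. These 3 were picked by their p-values for the same contrast, so the 7.28% of all genes without overlap is no measure for them. All 3 p-values are from edgeR's quasi-likelihood test, and DESeq2's adjusted p was 0.601 for *Icam1* and 0.0727 for *Selp*.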

How the data were processed

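The authors deposited raw read counts per gene and library, their own FPKM, and columns of their own comparison, which were not used. The submitters' processing notes name STAR, HTSeq, TopHat, DESeq2 and edgeR on GRCm38; the role of each, the annotation release and the use of strand are not given in the sources used here. Deposited FPKM equal the counts over gene length and total counts. In R 4.3.3, edgeR 4.0.16 filtered the counts (filterByExpr), scaled them by TMM and ran its quasi-likelihood test between genotypes without covariates. Benjamini-Hochberg adjustment spanned the whole filtered table. The standard error is the absolute log2 fold change over the square root of F. DESeq2 1.42.0, limma 3.58.1 voom, upper-quartile factors, other filters, left-out libraries and a replicate block were alternatives. The permutation test used log2(CPM + 1). All 35 genes lie at overlapping positions in GENCODE M21, whose transcripts were aligned with minimap2 2.31. The functions were tested on simulated data.

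The genes and lists were chosen with earlier results of these data known. Values in every library are given for genes with a mean of at least 10 CPM, at an unadjusted p under 0.05 in edgeR, DESeq2 or the block fit, without overlap, or among the 5 tested with the widest ratio of libraries; of receptor and NF-κB genes, for those at an unadjusted p under 0.05 in edgeR or otherwise the 4 of highest mean CPM. The rule also covered marker lists, which are given here mainly by counts and sums instead. Others, such as *S100a8*, *Lyz2* and *Il11*, were named after their values were seen. Isolations are separate cultures of pooled mice. No 2 libraries had the same counts. Low genes rest on few reads, and the floor for a count of 0 is 3 counts.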

Additional observations from a re-analysis of the deposited data

How the results depend on the processing

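At an adjusted p of 0.05, 0 of these genes were called under any setting tried, DESeq2 included, which called 30 genes in all where edgeR's quasi-likelihood test called 0. At an unadjusted p under 0.05 the genes numbered 2 of 21 in the edgeR test (background 2.69% of all genes) and 4 of 20 with DESeq2 (background 3.64%). Limma voom held 1 of 21 (background 2.51%), and the filter of at least 10 counts in every sample left 1 of 17 (background 2.66%). With both isolations numbered 3 left out, a setting added after the data were seen, it was 1 of 20 (background 1.88%). With each library left out, the genes at that threshold ranged from 0 of 24 (without the labelled *Ptprz1*-/- replicate 1, background 2.23%) to 4 of 24 (without *Ptprz1*+/+ replicate 1, background 4.84%). Genes whose groups do not overlap numbered 1 of 21 (background 7.28%), 2 of 35 without a filter on low counts (background 6.65%) and 6 of 20, or 30.0%, without both isolations numbered 3 (background 26.5%). With each library left out the fewest were 2 of 24 without the labelled *Ptprz1*-/- replicate 1 (background 15.7%) and 2 of 23 without *Ptprz1*+/+ replicate 2 (background 14.7%). The most were 7 of 24, or 29.2%, without *Ptprz1*+/+ replicate 1 (background 22.0%). The replicate block gave 6 of 21 genes (28.6%) at an unadjusted p under 0.05, where it gave 5.07% of all genes. They were *Ccl9*, *Ccl11*, *Il6*, *Ccl7*, *Ccl2* and *Ccl27a*, and at an adjusted p it gave 0. No label pairs the libraries by number. The correlations of their deviations between genotypes were 0.46, -0.060 and 0.53 for replicates 1, 2 and 3. Replicates 1 and 3 of *Ptprz1*+/+ correlated best with their own number, and replicate 2 did not. *Cxcl14* turned to 0.48 with limma voom and to 0.43 with the block. With each library left out, log2 fold changes ranged from -1.03 to 1.14 for *Cxcl14*, -1.84 to 0.36 for *Il33*, -1.14 to 0.28 for *Cxcl1*, -5.05 to 3.77 for *Cxcl13*, -0.14 to 0.82 for *Cx3cl1* and -0.47 to 0.81 for *Lif*. The other 11 of the 17 tested genes that the naming rule chose, *Il11* not among them, kept their direction under each setting in which they were tested (*Ccl11* not with at least 10 counts in every sample), and the cause of the turns was not tested. The median over the genes tested in each setting kept its sign, from -0.92 to -0.27.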
